A study of Glycine max with 8 samples.

Results

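The change of the soybean seed transcriptome from 8 h to 16 h of imbibition was followed on 6 of the 8 arrays of the series, the 3 titled as 8 h seed and the 3 titled as 16 h seed. All 6 held RNA of whole seed of Glycine max cultivar Suzumaru, soaked in 1% hypochlorous acid, washed and then kept on wet cotton at 25 °C without light. Per the labels, seeds entered the 8 h group after an uptake of over 0.06 g of water, and the 16 h group once they had germinated or passed 0.33 g, so time and this selection cannot be told apart. Between 20 and 25 seeds of a stage were split into 3 portions. Any p-value below rests on the scatter of such portions, which may be technical, and not on separate sowings. The 2 dry seed arrays entered 1 alternative fit and the choice of the spike-in probes, which had to be well above background and unsaturated on all 8 arrays. They entered no other value below. Slide 1 held 8 h replicate 1 and 16 h replicates 1 and 2, and slide 2 held 8 h replicates 2 and 3 and 16 h replicate 3.

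A dry legume seed takes up water fast, then passes a plateau in which respiration, repair and translation resume, and finally pushes out the radicle with renewed uptake. It enters this course with messenger RNA stored during maturation on the mother plant, which is translated and broken down while the embryo's own transcription restarts. Most of a soybean seed's mass is cotyledon, the store of protein and oil, so a whole seed extract is weighted towards that tissue. In such an extract, fewer cells of a type and less RNA per cell cannot be told apart. The array's 42748 soybean probes carry accessions and clone names, each probe with an accession of its own. None matched the 59048 genes of the reference table (0 matched), so classes of probes are described, and the tissue could not be checked against its marker genes. The classes are by how widely a probe was detected, how bright it was, which way it changed, and how its sequence is named.

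More of the transcriptome came above background at 16 h, and the soybean signal as a whole stood higher against RNA of known sequence added as spike-in. Probes well above background, a flag of the scanner software, numbered 25355, 26835 and 19559 on the 8 h arrays and 31193, 31137 and 29413 on the 16 h arrays. The stages did not overlap, and 8 h replicate 3 was the lowest. The floor of detection, given with the dim probes, was highest on that array. It was lower on the 16 h arrays only relative to each array's 75th percentile. Replicate 3 of 8 h also had the highest negative controls, with a median of 7.49 intensity units against 3.16 to 3.92 on the other 5, and its part in the low count was not tested. The 75th percentile of the soybean probes relative to the mean of 7 viral E1A spike-in probes was -5.64, -5.17 and -5.67 log2 at 8 h. It was -4.15, -3.76 and -4.30 log2 at 16 h. The difference between the stage means was 1.42 log2, or 2.68-fold, and every 16 h array stood above every 8 h array. The spike-in mean itself was 13.43 ± 0.050 log2 (SD, n = 3) at 8 h and 13.32 ± 0.18 at 16 h, with overlap. Per the labels each labelling began from 200 ng of total RNA, and the amount of spike-in is not given in the sources used here. A design of 3 arrays against 3 cannot give an exact permutation p below 0.1, two-sided, and both measures reached that value (0.125 after Benjamini-Hochberg adjustment over 10 such tests).

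At 16 h the array's signal was spread over more probes than at 8 h. The 100 brightest soybean probes of each array held 35.9%, 32.7% and 36.2% of its summed signal at 8 h, and 20.97%, 20.6% and 23.4% at 16 h. The stages did not overlap, and the means were 34.9% ± 1.94 and 21.6% ± 1.52 (SD, n = 3 each), a ratio of 1.61 of 8 h over 16 h. The 10 brightest held 11.4% ± 0.83 at 8 h and 6.81% ± 1.16 at 16 h, and the 1000 brightest 63.6% ± 2.18 and 49.5% ± 1.00. Each of the 3 measures gave an exact permutation p of 0.1, the smallest possible (0.125 adjusted). The probes at the top also changed. A pair of 8 h arrays shared 89 to 95 of their 100 brightest probes and a pair of 16 h arrays 80 to 88, while an 8 h and a 16 h array shared 55 to 67. Among the 1000 brightest the shared numbers were 895 to 916, 864 to 905 and 647 to 722. Brightness depends on a probe's hybridisation as well as on its transcript, so these are ranks of signal. Both slides gave the same direction for the 100 brightest, with a change of -15.1 percentage points on slide 1 and -11.1 on slide 2.

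**Figure D1:**
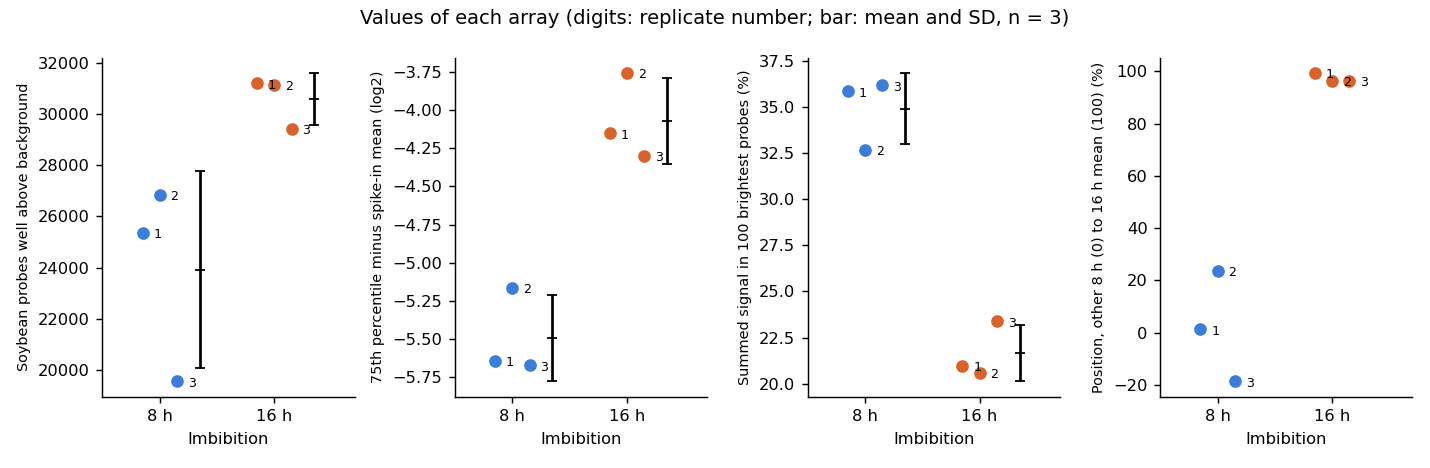
Each point is 1 array, labelled with its replicate number, at 8 h (blue) and 16 h (orange); the panels show the number of soybean probes well above background, the 75th percentile relative to the spike-ins in log2 units, the percentage of summed signal in the 100 brightest probes, and the position in percent on the line from the other 8 h arrays to the 16 h mean. That line is for the 8 h arrays, and the 16 h arrays are placed on the line from the 8 h mean to the mean of the other 16 h arrays. The stages do not overlap in any panel, though the lines of the last run by definition from stage to stage. In each panel 8 h replicate 2 is the 8 h array closest to 16 h.

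Most probes tested differed between 8 h and 16 h, with rises and falls in nearly equal number on the scale that sets each array's 75th percentile to 0. The test took in the 28733 probes that reached the flag on every array of 8 h seed, of 16 h seed or of both. Of these, 8451 (29.4%) rose and 8595 (29.9%) fell, or 59.3% in all (limma, Benjamini-Hochberg adjusted p under 0.05). The stages did not overlap at 69.9% of the tested probes, 9831 with all 16 h arrays higher and 10255 with all of them lower. The even balance joined probes of very different detection. Of the 19225 probes measured, meaning well above background, on all 6 arrays, 3707 rose and 7911 fell, with a median change of -0.32 log2. Of the other 9508 tested probes, 4744 rose and 684 fell, and the filter admitted nearly all of these through the 16 h arrays, so their rises can follow from their choice. Among the 19225, the median size was 1.99-fold for the rises and 2.05-fold for the falls. At least 4-fold changes numbered 348 up and 750 down, at least 8-fold changes 68 up and 164 down, and at least 16-fold changes 9 up and 5 down. The middle 90% of their changes ran from -1.83 to 1.39 log2. A limma fit blocked on slide gave 7710 rises and 7994 falls. Each slide alone leaves 1 residual degree of freedom, and its lone array is assumed to vary like the pair of the other stage. Within slide 1, where only the 2 arrays of 16 h give the spread, limma called 7952 higher and 8230 lower. Within slide 2, where only the 2 arrays of 8 h give it, limma called no probe (0 in each direction), against 3671 higher and 3608 lower ones with an unadjusted p under 0.05.

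The split between rises and falls depended on where the arrays were centred and which probes were admitted. Rises made up 49.6% of the calls on the 75th percentile scale and 49.9% after quantile normalization. They made up 34.97% with median centring, 65.1% with a percentile of the 6-array detected probes alone, 31.9% with normexp background, 35.2% without the filter on dim probes and 32.6% over probes measured on all 6 arrays in a fit of their own. Relative to the spike-ins 21505 probes (74.8% of those tested) were higher and 604 (2.1%) lower at 16 h, so that rises were 97.3% of the calls, and the median change over the tested probes shifted from 0.0059 to 1.43 log2. All 8451 probes that rose on the 75th percentile scale also rose relative to the spike-ins, a scale that moves nearly every change up by 1.42 log2. Of the 8595 that fell, 604 fell relative to the spike-ins too, 1991 rose and 6000 were not called.

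The 604 probes lower on both scales form the class whose fall did not depend on this choice of centring. They are all the probes called lower relative to the spike-ins. Since that scale moves changes up, their fall on the 75th percentile scale is not separate evidence. On the 75th percentile scale they changed by a median of -2.71 log2, and by -1.29 log2, or 2.45-fold lower, relative to the spike-ins. Of these, 563 were measured on all 6 arrays. On the spike-in scale 432 fell at least 2-fold and 62 at least 4-fold. Of the 604, 316 were in the brightest of 4 equal classes of tested probes by mean signal, and 124, 104 and 60 were in the next classes down. They were selected for their falls, so these sizes are a description.

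The brightest probes mostly fell relative to the 75th percentile, while relative to the spike-ins their median change was near 0. The 100 tested probes with the highest mean level over the 6 arrays were all measured on every array. On the 75th percentile scale 86 of them fell and 4 rose. Of the 19225 probes measured on all 6 arrays 41.2% fell and 19.3% rose, and of all tested probes 29.9% and 29.4%. The median change of the 100 was -1.42 log2, or 2.68-fold lower. The middle 50% of them lay between -2.09 and -1.03 and the extremes at -3.50 and 1.09. All of the 10 brightest fell. Relative to the spike-ins the same 100 probes had a median change of 0.00037 log2, with 23 lower, 18 higher and 59 not called, while all tested probes had a median of 1.43. The brightest 100 lay at -1.43 log2 from the median tested probe on both scales, which is fixed because the scales differ by a constant per array. The distance was -1.10 log2 from the median of the probes measured on all 6 arrays. From the median tested probe it was -0.32 with normexp background and -0.13 with quantile normalization. Under quantile normalization, which gives every array the same distribution of values, 24 of the 100 fell and 22 rose with a median of -0.084 log2. With normexp background 25 fell and 2 rose with a median of -0.77.

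Over all tested probes, in 4 equal classes by mean signal, the share that fell was higher in each brighter class, at 12.4%, 25.4%, 32.0% and 49.8% from the dimmest to the brightest, and the share that rose was 39.6%, 36.6%, 28.1% and 13.4%. The dim classes hold most of the probes not measured on all 6 arrays, nearly all of which the filter admitted through the 16 h arrays. Without them there was no such order below the brightest class. Among probes measured on all 6 arrays, divided into 4 equal classes by mean signal, the share that fell was 41.3% in the dimmest class, 31.0% and 38.0% in the middle classes and 54.3% in the brightest. The share that rose was 16.3%, 28.5%, 21.6% and 10.67% in the same order. On the spike-in scale, the brightest class held 58.4% rising and 5.08% falling probes and the second class 75.8% and 1.62%. With quantile normalization the brightest class held 25.8% rising and 30.0% falling.

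**Figure D2:**
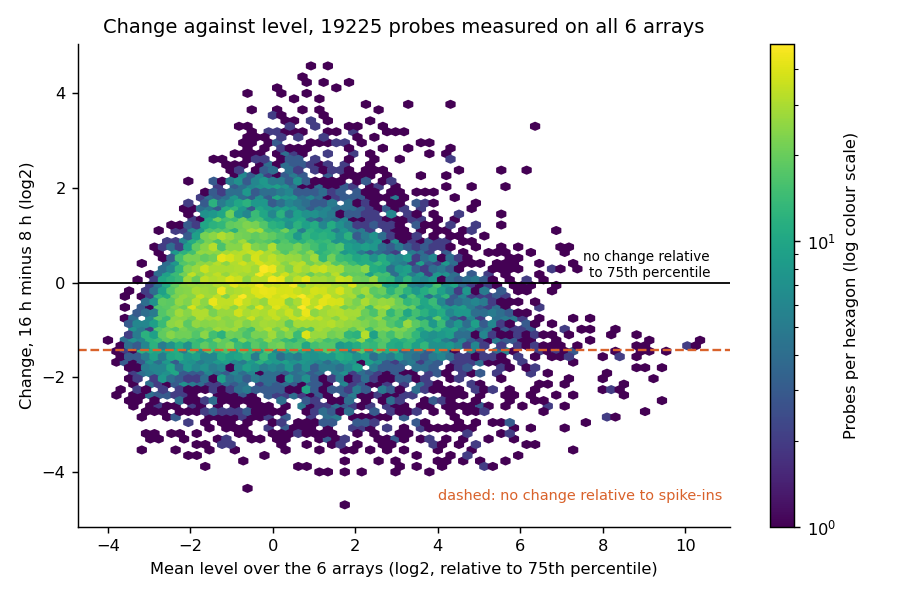
Each hexagon counts probes by mean level over the 6 arrays (horizontal axis, log2 relative to the 75th percentile) and by change from 8 h to 16 h (vertical axis, log2), for the 19225 probes measured on all 6 arrays. The solid line marks no change relative to the 75th percentile and the dashed line no change relative to the spike-ins, 1.42 log2 lower; the brightest probes lie around the dashed line and most others above it.

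**Figure D3:**
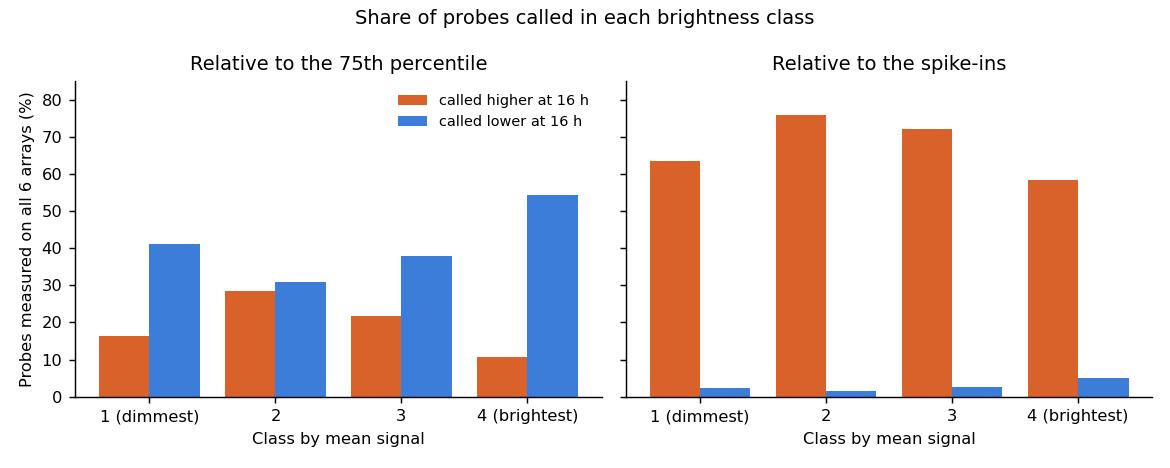
Bars give the percentage of probes called higher (orange) or lower (blue) at 16 h by limma in each of 4 equal classes of mean signal, over probes measured on all 6 arrays, on the 75th percentile scale (left) and the spike-in scale (right). The brightest class has the largest share of falls in both panels, 54.3% and 5.08%.

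The probes with the largest changes among those called, measured on all 6 arrays and free of overlap were 2 that rose and 2 that fell. They were selected for these changes, so their sizes and adjusted p from limma are a description. AW348149.1_707 had levels of -1.88, -0.70 and -1.65 log2 relative to the 75th percentile in 8 h seed, and of 3.47, 3.64 and 2.40 in 16 h seed. In processed intensity it went from between 57.6 and 190.2 to between 2427 and 9345. It rose by 4.58 ± 0.43 log2 (SE), 23.9-fold, at an adjusted p from limma of 0.000879. CX709355.1_638 stood at -1.08, -0.73 and -1.14 log2 at 8 h and at 3.88, 3.79 and 3.04 at 16 h. It rose by 4.55 ± 0.26 log2 (SE), 23.5-fold, at an adjusted p from limma of 0.000859. For both probes the highest 8 h array was replicate 2 and the lowest 16 h array replicate 3. On slide 2 alone the differences were 3.57 and 3.97 log2, against 5.44 and 4.91 on slide 1.

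The 2 falls varied more between portions than the 2 rises. CK605818.1_90 stood at 5.23, 3.796 and 2.95 log2 in the 8 h portions, against -1.99, -1.83 and 1.71 in the 16 h portions. It fell by 4.69 ± 1.06 log2 (SE), 25.9-fold, at an adjusted p from limma of 0.00897, and 16 h replicate 3 lay between the other 16 h arrays and the 8 h arrays. The change was -5.90 without that array, -4.05 without 16 h replicate 1 and -4.08 without 8 h replicate 1. Within slide 2 it was -1.66 and within slide 1 -7.14. GMFL01-30-B13-R_365 stood at 0.48, 1.501 and 2.95 log2 at 8 h and at -4.03, -1.40 and -2.63 at 16 h. It fell by 4.33 ± 0.81 log2 (SE), 20.2-fold, at an adjusted p from limma of 0.00447. Without 16 h replicate 1 or 8 h replicate 3 the change was -3.66 or -3.68, and without 16 h replicate 2 it was -4.98. Relative to the spike-ins the mean changes of the 4 probes kept their direction, at 6.005 and 5.98 log2 for the rises. They were -3.27 and -2.91 for CK605818.1_90 and GMFL01-30-B13-R_365, but on that scale the stages overlapped for both falls. CK605818.1_90 stood higher on 16 h replicate 3 (intensity 1507, spike-in mean 13.15 log2) than on 8 h replicate 3 (1716 and 13.47). GMFL01-30-B13-R_365 stood just higher on 16 h replicate 2 (284.4 and 13.31) than on 8 h replicate 1 (296.4 and 13.37). None of the 4 passed within slide 2, where the adjusted p of limma was 0.160 for 3 of them and 0.184 for CK605818.1_90.

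**Figure D4:**
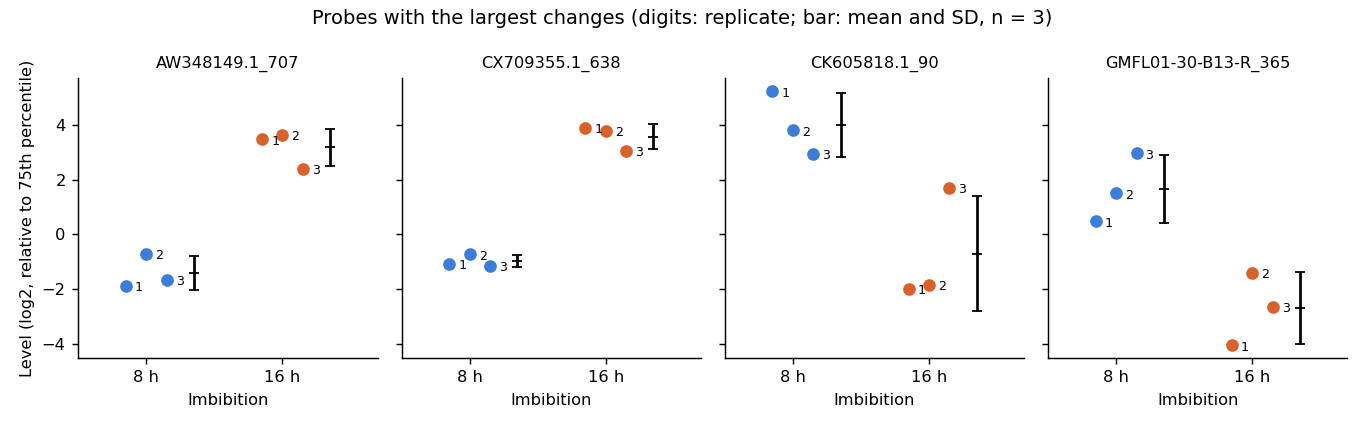
Levels of the 4 probes on each array (log2 relative to the 75th percentile) at 8 h (blue) and 16 h (orange), with replicate numbers and the mean and SD of 3 arrays. The stages do not overlap on this scale, which was a condition of the choice, and 16 h replicate 3 of CK605818.1_90, at 1.71, lies nearest to the other stage.

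Probes detected at 16 h and not at 8 h far outnumbered the reverse. The floor of detection was lower on the 16 h arrays relative to the 75th percentile, while relative to the spike-ins the stages overlapped. The flag was set on every 16 h array and on no 8 h array for 2481 probes, and 9 probes showed the opposite. Since a dim probe has no measured level, its change is given as a bound. The 16 h mean was set against the 8 h mean of, per array, the probe's own signal or that of the dimmest flagged probe, whichever was higher. All bounds here are on the 75th percentile scale. Relative to the spike-ins, those of probes seen at 16 h only would stand 1.42 log2 higher. Those of probes seen at 8 h only would stand as much lower. On the 75th percentile scale the bound exceeded 1-fold in 1196 cases, and for the rest of the 2481 it shows no rise. Over the 1196 its median was at least 1.54-fold and its maximum at least 218-fold. The 2481 and the 9 passed the filter only through the stage in which they were seen. The direction of their calls is thus largely fixed by that choice and supports nothing. Limma called 1684 of the 2481 higher and 7 lower, beside 29.4% and 29.9% of all tested probes. Among the called ones the bound was at least 2-fold for 370, at least 4-fold for 94 and at least 8-fold for 22. The 9 probes seen at 8 h only were all called lower, by at least 5.03-fold to at least 13.1-fold. The 2481 became 4235 without 8 h replicate 2 and 922 with the software's less strict flag for signal above background. The 9 became 59 without 8 h replicate 3, 26 without 16 h replicate 2 and 16 without 8 h replicate 1 or 8 h replicate 2.

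Many further probes were detected on every 16 h array and on part of the 8 h arrays, most of them missed on the same 8 h array. Well above background on all 16 h arrays and on exactly 2 of the 8 h arrays were 4804 probes, and 4760 of them (99.1%) were missed on 8 h replicate 3. The dimmest flagged probe of each array lay at -3.97, -4.32 and -2.81 log2 relative to the 75th percentile on the 8 h arrays. It was at -5.42, -5.49 and -4.92 on the 16 h arrays, lower on this scale. Floors of the stages overlapped on the spike-in scale, so these values do not show that dimmer spots could pass at 16 h. Limma called 1949 of the 4804 higher and 574 lower at 16 h, beside 29.4% and 29.9% of all tested probes, but they too entered the test through the 16 h arrays, so nothing is read from this excess.

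The 8 h arrays lay at unequal distances from the 16 h arrays. Over the probes measured on all 6 arrays, each 8 h array was placed on the line from the mean of the other 8 h arrays (0%) to the 16 h mean (100%). Replicate 1 lay at 1.35%, replicate 2 at 23.7% and replicate 3 at -18.6%. Replicate 3 is the array with the highest negative controls and, at -2.81 log2, the highest floor, and whether the distances reflect the seed portions or the arrays was not tested. The 16 h arrays, placed on the line from the 8 h mean to the mean of the other 16 h arrays, lay at 99.3%, 96.4% and 96.3%. Replicate 2 of 8 h correlated with the 16 h arrays across probes at r = 0.898 to 0.904, replicate 1 at 0.862 to 0.864 and replicate 3 at 0.836 to 0.841, while arrays of 1 stage correlated at 0.978 to 0.989. These correlations are across probes, which are not independent replicates.

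Counted by probe, on the same values and so as a restatement of these positions, replicate 2 was most often the 8 h array nearest to 16 h. Among the 3707 measured probes that rose, replicate 2 was the nearest for 68.5%, replicate 1 for 19.5% and replicate 3 for the rest. Among the falls, 71.8%, 20.9% and 7.32% had replicate 2, 1 and 3 nearest. The 8 h array with the most detected probes, the highest 75th percentile against the spike-ins and the lowest share of signal in its 100 brightest probes was replicate 2 as well. Replicates 2 and 3, at opposite ends of this order, lay on the same slide. The median SD per measured probe was 0.21 log2 among 8 h arrays and 0.17 among 16 h arrays, and it was larger at 8 h for 62.4% of the probes.

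The change differed between kinds of probe name. Of the soybean probes, 9369 carry the name of a clone of the GMFL series that ends in R (7774 probes) or in F (1595), 0 clones have both, and the others are named by accession only. What R and F stand for is not given in the sources used here. Of 6608 tested R probes 35.6% rose and 26.4% fell, and of 1122 tested F probes 18.2% rose and 39.1% fell, beside 29.4% and 29.9% of all tested probes. Over probes measured on all 6 arrays, 26.4% of 5181 R probes rose and 32.9% fell, and 11.9% of 741 F probes rose and 52.8% fell, beside 19.3% and 41.2% of all 19225 such probes. The median changes of these measured probes were -0.098 log2 for R, -0.58 for F and -0.38 for names by accession only. With each probe centred on its own mean over the 6 arrays, the median of the R probes minus that of the F probes was -0.28, -0.17 and -0.21 log2 on the 8 h arrays and 0.18, 0.29 and 0.22 on the 16 h arrays. The stages did not overlap, with a difference of 0.45 log2 and an exact permutation p of 0.1, the smallest possible (0.125 adjusted over 10 tests).

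R probes were brighter than F probes, with a median level over the tested probes of 0.52 log2 against -1.39, and the gap in change was present in each class of brightness. From the dimmest to the brightest of the 4 classes of measured probes, the median change was 0.14, 0.41, 0.055 and -0.43 log2 for R and -0.63, -0.50, -0.51 and -0.71 for F. The distance between the 2 kinds was least in the brightest class. Over all tested probes the median of R exceeded that of F by 0.47 log2, by 0.57 within slide 1 and by 0.40 within slide 2. The median of R was higher in each of 23 alternative settings, but some of these could not change the difference. Shifting whole arrays, as in spike-in centring, or changing only the variance step leaves it at 0.47. In the others it ran from 0.12, where dim values were raised to a common floor, to 0.79 with normexp background. The sign of each median alone depended on the centring, and relative to the spike-ins both were positive, at 1.56 for R and 1.10 for F.

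**Figure D5:**
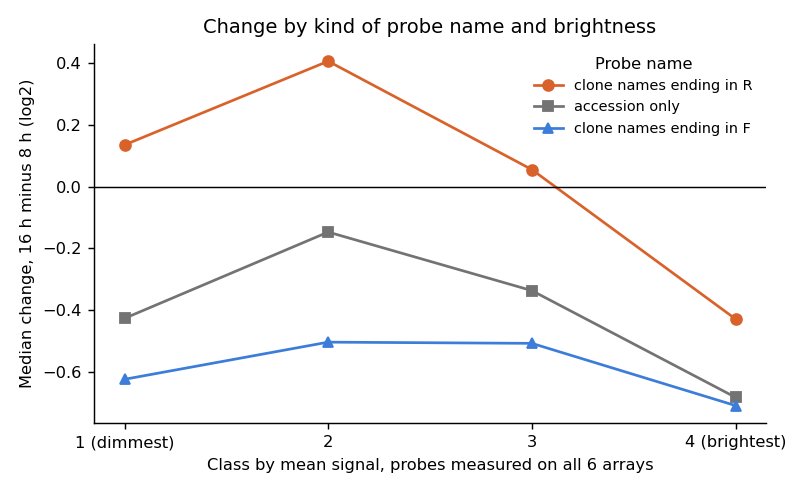
Median change from 8 h to 16 h (log2, 75th percentile scale) of probes measured on all 6 arrays, by class of mean signal, for clone names ending in R (orange circles), clone names ending in F (blue triangles) and probes named by accession only (grey squares). The R probes lie above the F probes in each class, at 0.41 against -0.50 in the second.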

How the data were processed

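Total RNA of whole seed was measured on 1-colour Agilent arrays. Per the file headers, Agilent Feature Extraction 10.7.3.1 gave each spot a processed intensity, background-subtracted and detrended within the array and not normalized between arrays. Spot and local background median intensity, per the file headers, served only for the normexp alternative, since no mean signal is given. The deposited value table holds log2 values that equal those computed here up to a constant of -0.0025 to -0.00071 per array, with column medians from -3.10 to -2.52. Its 42808 entries include 60 that are no soybean probe, and how it was made is not given in the sources used here.

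Values were log2 of processed intensity less the array's 75th percentile, taken over the 42748 soybean probes, without 1417 control spots and 0 to 4 outlier spots per array. No spot was saturated. Stage means were compared on 28733 probes with limma 3.58.1 in R 4.3.3 (lmFit, eBayes, 4 residual degrees of freedom), two-sided, with a call at a Benjamini-Hochberg adjusted p under 0.05. The step was also run on simulated data with independent noise and far fewer changed probes than were called here, so that run does not check these calls. Values per array were compared by exact permutation in scipy 1.17.1. The spike-in mean is over 7 of 10 E1A probes, 32 spots each, well above background and unsaturated on all 8 arrays, dry seed included. Arrays have no read depth: signal over background and the 3 arrays per stage set the precision. The rule for named probes took the 2 largest rises and the 2 largest falls among called probes measured on all 6 arrays without overlap. Probe sequences and gene names were not used here, so planned lists of genes were not tested. The comparison, classes and rules were chosen with earlier results of these data known.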

Additional observations from a re-analysis of the deposited data

How the results depend on the processing

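Of 23 alternative settings of the limma comparison, 20 left the number of called probes within 1.5 times of 17046. With normexp background, with or without spots below their local background, 3202 probes were called, 1020 higher and 2182 lower. Slide 2 alone gave 0 calls, with 3671 higher and 3608 lower at an unadjusted p under 0.05, from 3 arrays. Spike-in centring gave 21505 higher and 604 lower, no filter 13631 lower, and only probes measured on all 6 arrays 4135 higher. With 1 array left out in turn, between 13072 and 16808 probes were called, 6329 to 8522 higher and 6743 to 8286 lower. Probes well above background at 16 h only numbered 922 under the less strict flag and 2516 to 4235 with an array left out. Those at 8 h only numbered 10 to 59 with an array left out. The 4 named probes were called in 21 or 22 of the 23 settings, the exceptions being slide 2 alone for all 4 and slide 1 alone for GMFL01-30-B13-R_365. These probes were picked as called, with the largest changes, in the main fit of the same arrays, so their repeated calls are not separate support. The replicate block called 15843 probes. Same-numbered arrays deviated together at r = 0.10, 0.093 and -0.047, so the numbers were not taken as pairs. The settings for the 100 brightest probes and for probe names were chosen after seeing the data, and each accession has 1 probe, so the setting with 1 probe per accession was not run. The high floor of 8 h replicate 3 limits what its dim probes can show.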
